A study of Mus musculus with 2 samples.

Results

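The genes examined here build and fill the lysosome of adipose tissue macrophages (ATMs). The set held 33 genes chosen by symbol, out of 31053 genes in the deposited matrices, of which 15902 had at least 1 UMI (a counted RNA molecule) in the cells kept. It comprised 6 subunits of the membrane sector (V0) and 8 of the catalytic sector (V1) of the vacuolar proton pump, 2 accessory subunits, 7 lysosomal membrane proteins, 7 lysosomal enzymes and cofactors, and 3 MiT/TFE transcription factors. The genes lie on 14 chromosomes of mm10.

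The study compared ATMs of male C57/BL6 mice kept on control diet (CD) with those of mice fed a high-fat diet (HFD) overnight, to ask how a first lipid load acts on these cells. Mice were 8 to 12 weeks old. ATMs were sorted from epididymal adipose tissue by the gate CD45+Lin-Ly6Clow/-F4/80+ and profiled by droplet-based scRNA-seq from the 3' end of transcripts. Cells of 3 CD mice were pooled into 1 library and cells of 3 HFD mice into another, so neither diet had a replicate, no test between diets was possible, and every interval given covers counting error at 95% only. Diet and library cannot be told apart.

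The CD library kept 2364 of 4459 barcodes and the HFD library 2021 of 3163 (200 to 3500 genes and at most 10% mitochondrial UMIs), with medians of 4490.5 and 2792 UMIs per cell. The libraries shared 14 barcodes, of which 7 were kept in both. At least 1 of 8 macrophage markers had a UMI in 99.8% of CD and 99.0% of HFD cells, and the 8 summed to 9489 CPM (a gene's UMIs scaled to a fixed library total) in CD and 6205 in HFD. Among markers of other cells, erythroid genes gave 790 CPM in CD and 881 in HFD with a UMI in 24.7% and 7.32% of cells, and stromal genes gave 70.7 and 4.58 CPM. The lists for endothelial, peritoneal, B, T or NK, neutrophil, adipocyte and mesothelial cells each summed to 12.6 CPM or less in both libraries. The part of these cells in the results below was not tested, other than by leaving out every cell with such a UMI where this is stated.

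The lysosome is the acidic compartment in which macrophages digest engulfed lipid, protein and dying cells. The V-ATPase spends ATP in its V1 sector to drive protons through its V0 sector, the acid pH activates hydrolases such as hexosaminidase and beta-galactosidase, and heavily glycosylated membrane proteins such as LAMP1 and LAMP2 line the organelle. TFEB, TFE3 and MITF bind an E-box called the CLEAR element and can switch on many of these genes together, and lysosomal digestion of stored lipid is a known activity of macrophages in adipose tissue.

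The CLEAR element contains the letters TCACGTG, and promoters were searched for these letters on both strands. RefSeq promoters of GRCm38.p6, running from 250 bases before to 50 bases after the start of transcription, were held for 28 of the 33 genes. TCACGTG was found in 7 of them, or 25%, against 4.29% of the 27025 genes in the table. It was also found in 17 of 59 promoters (28.8%) of 74 other lysosomal genes, and the shorter CACGTG, which it contains, in the same 7 of the 33 and in 8.09% of all genes. The windows below are shown because they carry the letters that the 3 transcription factors of the set are known to read. Capitals mark TCACGTG in either orientation, or the 8 letters where both orientations overlap, and each window runs 5' to 3' on the gene's strand.
Atp6v0b: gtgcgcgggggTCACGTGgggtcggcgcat
Atp6v0d1: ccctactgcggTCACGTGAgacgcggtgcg
Atp6v0e: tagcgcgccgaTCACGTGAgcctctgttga
Atp6v1a: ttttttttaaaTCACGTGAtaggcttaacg
Lamp1: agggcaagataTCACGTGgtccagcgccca
Mcoln1: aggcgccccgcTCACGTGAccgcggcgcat
Glb1: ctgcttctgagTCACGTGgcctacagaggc

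The windows lie at chr4:117887348-117887377 (minus strand) for *Atp6v0b*, chr8:105566050-105566079 (minus) for *Atp6v0d1*, chr17:26676387-26676416 (plus) for *Atp6v0e*, chr16:44139373-44139402 (minus) for *Atp6v1a*, chr8:13159088-13159117 (plus) for *Lamp1*, chr8:3500462-3500491 (plus) for *Mcoln1* and chr9:114401018-114401047 (plus) for *Glb1*. The capitals began 37 bases before the start of transcription in *Atp6v0b*, 4 before it in *Atp6v0d1*, 132 before it in *Atp6v1a*, 62 before it in *Lamp1*, 46 before it in *Mcoln1* and 49 before it in *Glb1*, and at base 3 of the transcript in *Atp6v0e*. *Lamp1* had 3 further matches between 45 and 16 bases before the start, and *Atp6v0b* and *Mcoln1* had 1 further match each. The 7 genes with the letters had a median log2 ratio of HFD over CD of -0.04, and the 21 genes whose promoter lacked them a median of -0.02. A match is a description of the sequence, and no binding was measured.

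The 33 genes together made up 1.05% of all UMIs in CD ATMs (1.04 to 1.05%) and 0.997% in HFD ATMs (0.990 to 1.004%), a log2 ratio of -0.07 (-0.09 to -0.06). Once each cell was thinned to 800 UMIs, the median cell had 9 UMIs from the set in CD (quartiles 6 and 11) and 8 in HFD (6 and 11). Thinning left out the 30 CD and 147 HFD cells with fewer UMIs. When the HFD cells were weighted to the CD mix of cells with or without *Lyve1* and with high or low *Lyz1*, an alternative chosen after the data had been seen, the log2 ratio was -0.01.

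*Psap*, which encodes prosaposin, the precursor of the saposins that present sphingolipids to their hydrolases, gave 29.6% of the set's UMIs in CD and 32.0% in HFD. It lies at chr10:60277627-60302597. Since a single gene weighs this much in the sum, sums are also given without it. Without *Psap* the log2 ratio of HFD over CD was -0.12 (-0.14 to -0.11).

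Cells were next assigned to 5 overlapping classes by the UMIs of 1 gene each. Cells with a UMI of *Timd4*, *Lyve1*, *Ccr2* or *Trem2* formed the Timd4+, Lyve1+, Ccr2+ and Trem2+ classes, and cells with at least 10 UMIs of *Lyz1* formed the Lyz1-high class. *Timd4* and *Lyve1* mark resident ATMs, *Ccr2* and *Lyz1* mark cells closer to monocytes, and *Trem2* is a lipid receptor of lipid-associated macrophages. The CD library held 368 Timd4+, 1172 Lyve1+, 1326 Ccr2+, 638 Trem2+ and 555 Lyz1-high cells, and the HFD library 72, 415, 1131, 168 and 672. Membership by 1 UMI depends on depth and on free RNA, and reads of *Lyz1* and its close paralog *Lyz2* may be split between the genes.

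The set's share was highest in resident and Trem2+ classes and lowest in Lyz1-high cells. In CD it was 1.13% in Timd4+ cells, 1.12% in Trem2+ cells and 1.11% in Lyve1+ cells, and the intervals of these neighbours overlapped. It was 1.008% in Ccr2+ cells (1.001 to 1.015%) and 0.990% in Lyz1-high cells (0.981 to 0.999%), below the other classes. In HFD the order was Trem2+ at 1.23% (1.204 to 1.249%), Lyve1+ at 1.08% (1.07 to 1.10%), Timd4+ at 1.04% (1.002 to 1.078%), Ccr2+ at 0.934% (0.926 to 0.941%) and Lyz1-high at 0.913% (0.905 to 0.922%). Of these neighbours only Lyve1+ and Timd4+ cells had intervals that overlapped.

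**Figure D1:**
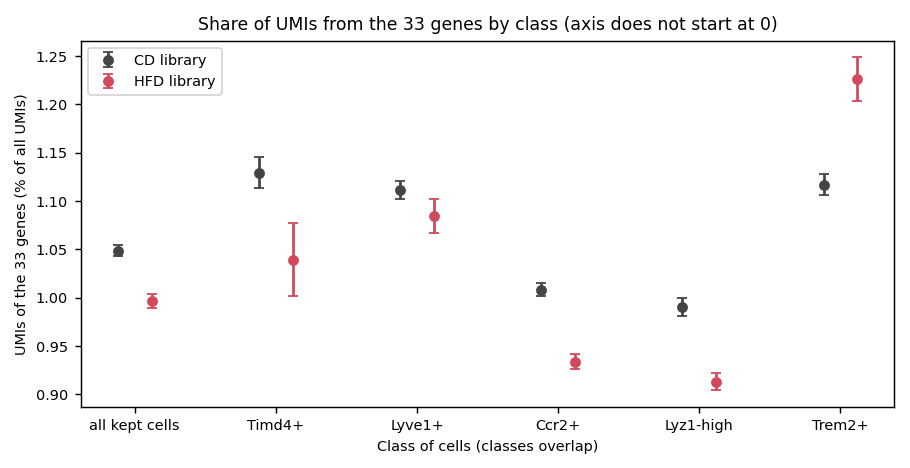
Share of all UMIs that came from the 33 genes (y axis, percent, not starting at 0) in all kept cells and in 5 overlapping classes (x axis) of the CD library (grey) and the HFD library (red). Points are summed shares and bars 95% counting intervals. The HFD point lies below the CD point in every class but Trem2+, where it is 1.23% against 1.12%.

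Among the 33 genes in all kept cells, 1 was at least 1.5-fold higher in HFD and 2 at least 1.5-fold lower, and all 33 had the 100 UMIs required for this count. Over the 8708 genes with as many UMIs, 3.8% were higher and 7.11% lower, so the set's counts were near the background. The median log2 ratio was -0.01 in the set and -0.01 over all genes. The groups differed in their sums over all kept cells, where 48.4% of all genes had a ratio above 0. V-ATPase subunits summed to 2563 CPM in CD and 2771 in HFD (log2 ratio 0.11, 0.09 to 0.14), with 11 of 16 ratios above 0. Lysosomal membrane proteins summed to 2779 and 2479 CPM (-0.17, -0.19 to -0.14) with 1 of 7 above 0, and enzymes and cofactors to 5016 and 4609 CPM (-0.12, -0.14 to -0.10) with 1 of 7 above 0. These sums pool a mix of cells that differed between the libraries. Within Lyz1-high cells 5 of 7 membrane proteins had ratios above 0, against 47.4% of all genes, with a sum at -0.09 (-0.13 to -0.05). In Lyve1+ cells with under 10 *Lyz1* UMIs the membrane proteins were at 0.02 (-0.04 to 0.08) and the enzymes at -0.01 (-0.05 to 0.04). Each of these groups had 2 of 7 ratios above 0 there, against 53.2% of all genes. In Trem2+ cells the membrane proteins were at 0.15 (0.10 to 0.21) and the enzymes at 0.05 (0.002 to 0.09). In each group 3 of 7 ratios were above 0 there, near the 45.9% of all genes, with medians of -0.03 and -0.09. Among membrane proteins *Cd63* (607.9 against 1060 CPM) and *Cd68* (455.8 against 621.1) were higher in HFD. *Lamp2* (363 against 291), *Laptm5* (707.8 against 606) and *Laptm4a* (309 against 248) were lower. The abundant *Lamp1* (840.9 against 824.2) and the sparse *Mcoln1* (25.1 against 32.4) had intervals across 0. The sum of the enzymes rose with *Psap* (2724 against 3383 CPM).

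**Figure D2:**
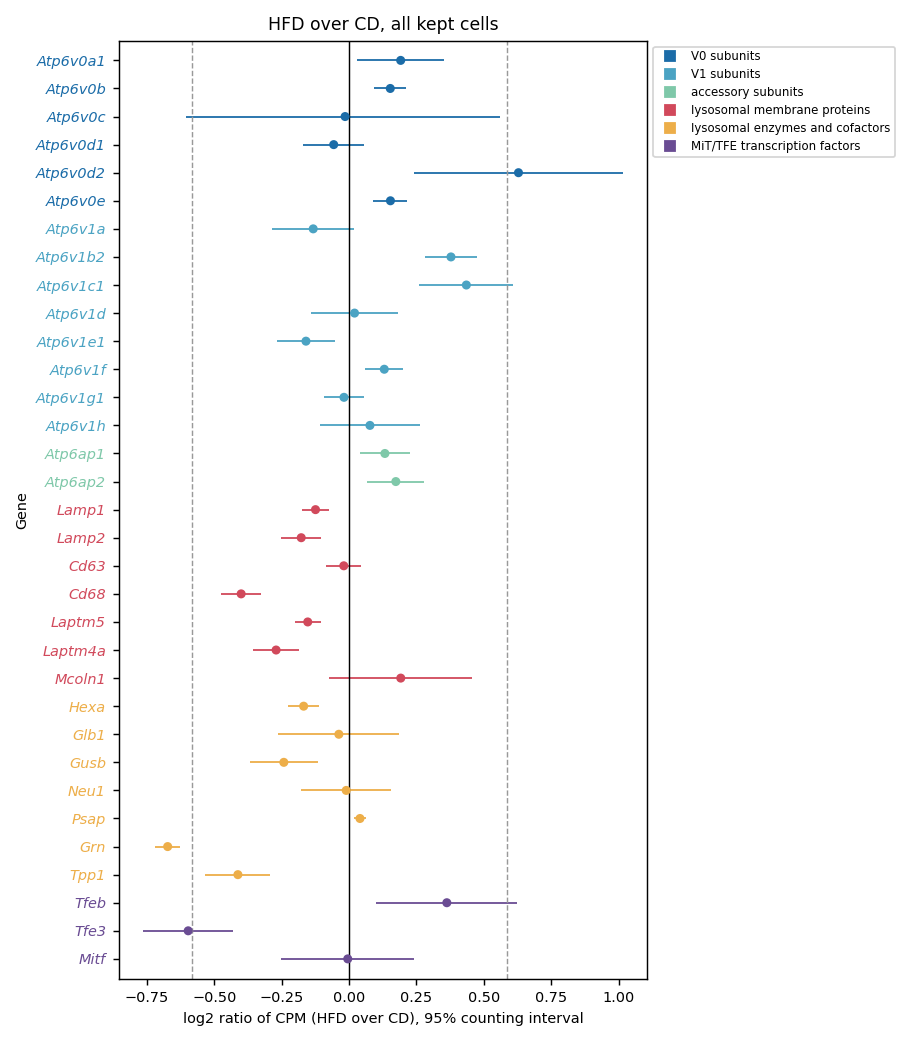
Log2 ratio of CPM in HFD over CD for each of the 33 genes in all kept cells (x axis, points with 95% counting intervals), with genes on the y axis coloured by role and dashed lines at 1.5-fold. Most V-ATPase subunits lie right of 0 and most membrane proteins and enzymes left of it, and *Atp6v0d2*, *Grn* and *Tfe3* pass the dashed lines.

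The V0 sector carries protons across the membrane. *Atp6v0d2*, an isoform of the d subunit best known from osteoclasts (chr4:19876841-19922605), was at 9.12 CPM in CD (7.51 to 11.0) and 14.1 in HFD (11.6 to 16.9), a log2 ratio of 0.63 (0.24 to 1.02). It rested on 112 UMIs in 93 CD cells and 114 UMIs in 78 HFD cells. It was the gene that passed 1.5-fold upwards, and without cells that had a UMI of another cell type's marker its ratio was 0.44 (-0.003 to 0.90). With each cell thinned to 800 UMIs, *Atp6v0d2* kept 36 UMIs, too few for the count of genes past 1.5-fold, and its ratio was 0.32 (-0.71 to 1.34). *Atp6v0d1*, the ubiquitous isoform of the same subunit, was at 135 and 129.7 CPM (-0.06). *Atp6v0a1*, an a subunit that forms the proton path, was at 61.0 and 69.6 CPM (0.19), *Atp6v0b*, a ring subunit, at 449.6 and 499.9 CPM (0.15), and *Atp6v0e* at 394.5 and 438.8 CPM (0.15). These 3 had intervals above 0 yet differences far under 1.5-fold. *Atp6v0c*, the main subunit of the proton ring, had 66 CD and 43 HFD UMIs (5.37 and 5.32 CPM). The annotation names 2 pseudogenes of it that could share its reads, so its level is uncertain.

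The V1 sector hydrolyses ATP and docks onto V0 when the pump is active. Its catalytic subunit *Atp6v1a* was at 75.9 CPM in CD and 69.3 in HFD (log2 ratio -0.13), with an interval reaching across 0. Its partner in the ATP-binding ring, *Atp6v1b2*, was at 157.8 and 205 CPM (0.38, 0.28 to 0.47). *Atp6v1c1*, which helps hold both sectors together, was at 46.7 and 63.1 CPM (0.44, 0.26 to 0.61). These were the largest V1 differences, and neither reached 1.5-fold. *Atp6v1f* of the central rotor was at 317.9 and 348 CPM (0.13), and *Atp6v1d*, also of the rotor, at 63.9 and 64.8 CPM (0.02). *Atp6v1e1* of the outer stalk was at 158.5 and 141.8 CPM (-0.16), and its stalk partner *Atp6v1g1* at 317.4 and 313.2 CPM (-0.02). The regulatory subunit *Atp6v1h* was at 47.7 and 50.3 CPM (0.08). *Atp6v1e1* was thus the one V1 subunit with an interval below 0.

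The accessory subunits help assemble the pump, and both had intervals above 0. *Atp6ap1* was at 183.7 CPM in CD and 201.5 in HFD (log2 ratio 0.13), and *Atp6ap2*, also known as the prorenin receptor, at 138.7 and 156.4 CPM (0.17).

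Over all kept cells lysosomal membrane proteins were mostly lower in HFD, each by less than 1.5-fold, which did not hold within every class as given above. *Lamp1*, an abundant glycoprotein of the lysosomal membrane (chr8:13159161-13175338), was at 684.6 CPM in CD and 627.8 in HFD (log2 ratio -0.12). *Lamp2*, needed for fusion with autophagosomes, was at 323.8 and 286.3 CPM (-0.18). *Cd68*, the macrophage member of the LAMP family, was at 349.6 and 264.8 CPM (-0.40, -0.48 to -0.33), the largest difference of the group. *Laptm5*, a lysosomal protein of blood cells, was at 743.1 and 668 CPM (-0.15), and its relative *Laptm4a* at 258.5 and 214.2 CPM (-0.27). The intervals of these 5 lay below 0. The tetraspanin *Cd63* was at 397.4 and 392 CPM (-0.02), and the calcium channel *Mcoln1* at 22.3 and 25.5 CPM (0.19), both with intervals across 0. A pseudogene of *Cd63* is named in the annotation, so reads may be shared.

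The enzymes and cofactors held the largest single difference of the set in size. *Grn* (chr11:102430315-102437048) encodes progranulin, which is cut into granulins in the lysosome and is needed for normal lipid breakdown there. It was at 1022 CPM in CD (1004 to 1040) and 640.7 in HFD (623.4 to 658.4), a log2 ratio of -0.67 (-0.72 to -0.63) on 12554 and 5181 UMIs. Weighted to the CD mix of cells, its log2 ratio was -0.42 and it did not pass 1.5-fold. *Tpp1*, a peptidase of the lysosome, was at 139 and 104.4 CPM (-0.41, -0.53 to -0.29), *Gusb*, beta-glucuronidase, at 117.5 and 99.3 CPM (-0.24), and *Hexa*, the alpha chain of hexosaminidase, at 541.6 and 481.8 CPM (-0.17). *Glb1*, beta-galactosidase, was at 34.0 and 33.1 CPM (-0.04), and the sialidase *Neu1* at 61.3 and 60.8 CPM (-0.01), both with intervals across 0. *Psap* was at 3101 and 3189 CPM (0.04, 0.02 to 0.06), the one member of this group with an interval above 0.

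The transcription factors that can drive these genes went apart. *Tfe3* was at 78.4 CPM in CD and 51.8 in HFD (log2 ratio -0.60, -0.77 to -0.43), on 963 and 419 UMIs. It passed 1.5-fold by a small margin, and did not pass it under the study's own quality filters, with at most 5% mitochondrial UMIs, at 800 UMIs per cell or at the CD mix of cells (-0.36). *Tfeb* was at 21.7 and 27.9 CPM (0.36, 0.10 to 0.62), and *Mitf* at 27.9 and 27.8 CPM (-0.01). These genes act largely through movement of their proteins into the nucleus, which RNA does not show.

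Within classes of cells the diets differed in few of the genes by 1.5-fold. In Lyve1+ cells 1 of 31 genes with enough UMIs was higher in HFD, *Atp6v0a1* (72.8 against 110.4 CPM, log2 ratio 0.60), and 0 were lower, against 4.79% and 6.8% of all genes. In Ccr2+ cells 0 of 32 were higher and 2 lower, *Grn* (847 against 546.6 CPM, -0.63) and *Tfe3* (66.3 against 43.1 CPM, -0.62), against 3.08% and 6.71%. In Lyz1-high cells 0 of 31 were higher and 1 lower, *Tfe3* (55.5 against 35.7 CPM, -0.64), against 2.99% and 4.67%. In Timd4+ cells 0 of 26 were higher and 4 lower, against 5% and 14%. The 4 were *Tfe3* (-0.83, -1.73 to -0.04), *Atp6v1d* (-0.79, -1.74 to 0.03), *Cd68* (-0.69, -1.06 to -0.33) and *Grn* (-0.64, -0.83 to -0.45), and *Tfe3* and *Atp6v1d* there had 14 and 13 HFD UMIs. Of the Timd4+ cells 77.7% in CD and 38.9% in HFD also had a *Lyve1* UMI, so the class did not hold the same mix in both libraries.

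*Grn* stood lower in HFD in each of the 5 classes. It was at 1406 CPM in CD and 902.2 in HFD in Timd4+ cells, at 1337 and 894.6 in Lyve1+ cells, and at 657.4 and 491.2 in Lyz1-high cells (-0.42). In Trem2+ cells it was at 1256 and 836.1 CPM (-0.59, -0.70 to -0.48). The diet intervals of *Grn* overlapped in none of the 5 classes. The classes overlap and differed in mix between the libraries. In Lyve1+ cells with under 10 *Lyz1* UMIs the log2 ratio of *Grn* was -0.45 (-0.55 to -0.35). In Lyz1-high cells without *Lyve1*, which share no cell with these, that of *Grn* was -0.28 (-0.37 to -0.19), and neither reached 1.5-fold. Of the macrophage markers, *Csf1r* moved with it, from 1142 CPM in CD to 706.1 in HFD in Timd4+ cells, from 1115 to 798.8 in Lyve1+ cells, from 651.5 to 376.8 in Ccr2+ cells, from 445.3 to 270.9 in Lyz1-high cells and from 961.8 to 521.7 in Trem2+ cells. *C1qa* and *C1qb* were likewise lower in HFD in each class. *Itgam* was higher in each, with intervals that overlapped in Timd4+, Lyve1+ and Trem2+ cells. The other markers, *Adgre1*, *Fcgr1*, *Mertk* and *Ptprc*, were higher in some classes and lower in others. *Adgre1*, for example, went from 328.9 to 474.3 CPM in Timd4+ cells and from 337.2 to 283.2 in Lyve1+ cells. The part of these markers in the result was not tested.

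In Timd4+ cells the sum of the 33 genes had a log2 ratio of HFD over CD of -0.12 (-0.18 to -0.06). Its interval reached across 0 at 800 UMIs per cell (-0.26 to 0.22) and with median-of-ratios scaling (-0.09 to 0.03), so no direction is given. In all class ratios at 800 UMIs the classes were redrawn from the thinned counts, with Lyz1-high cells at 2 or more *Lyz1* UMIs. The redrawn Timd4+ class held far fewer UMIs, which widens its interval. *Psap*, for example, had 203 CD and 59 HFD UMIs there, against 4347 and 731 before. The sum was lower in HFD in Ccr2+ cells (-0.11, -0.13 to -0.10) and in Lyz1-high cells (-0.12, -0.14 to -0.10). *Psap* accounted for most of the last of these, since the ratio without it was -0.01. Of the Ccr2+ cells 37.5% in CD and 13.6% in HFD also had a *Lyve1* UMI, and of the Lyz1-high cells 22.2% and 8.04%. These classes too held different mixes in the libraries, and the part of this was not tested. In Lyz1-high cells without *Lyve1* the ratio was -0.09 (-0.11 to -0.07). In Lyve1+ cells the ratio was -0.04 (-0.06 to -0.01), but it was 0.03 (-0.04 to 0.10) at 800 UMIs per cell, and its interval reached across 0 under the study's filters (-0.05 to 0.003) and with at most 5% mitochondrial UMIs (-0.06 to 0.002), so no direction is given there. In Trem2+ cells the sum was higher in HFD (0.13, 0.10 to 0.16). V-ATPase subunits as a group were above 0 in Lyve1+ (0.11), Ccr2+ (0.10), Lyz1-high (0.16) and Trem2+ cells (0.28, 0.22 to 0.34), and at -0.05 in Timd4+ cells with an interval across 0 (-0.17 to 0.06).

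A larger contrast lay within each library, between resident-type and monocyte-type cells. For this, Lyve1+ cells with under 10 *Lyz1* UMIs (1049 in CD, 361 in HFD) were set against Lyz1-high cells with no *Lyve1* UMI (432 and 618), so that no cell was in both sets. The 33 genes made up 1.12% of UMIs in the Lyve1+ set and 0.970% in the Lyz1-high set in CD (log2 ratio 0.21, 0.19 to 0.23), and 1.15% and 0.909% in HFD (0.34, 0.31 to 0.37). Without *Psap* the ratios were 0.61 in CD and 0.55 in HFD. The median over all genes was itself 0.17 in CD and 0.12 in HFD, and after scaling by the median of ratios the sums were at 0.04 and 0.22.

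In CD, 15 of 31 genes with enough UMIs were at least 1.5-fold higher in the Lyve1+ set and 1 was lower, against 25.3% and 11.5% of 6367 genes. In HFD, 14 of 31 were higher and 0 lower, against 23.4% and 13.8% of 4808 genes. The share of the set past 1.5-fold upwards was thus above that of all genes in both libraries, with the set's genes also deeper (a median of 1190 UMIs against 285 in CD, and 756 against 243 in HFD). From these same cells the paper had reported lysosomal genes, *Cd63*, *Lamp1* and *Lamp2* among them, enriched in its *Lyve1* cluster over a monocyte-derived cluster. The set was chosen with earlier results of these data known, so the excess is no independent evidence. The libraries shared 13 of these genes, which is 86.7% of the CD genes and 92.9% of the HFD genes. The same overlap is not given over all genes, so it is not read as particular to the set. Across the 31 genes the ratios of both libraries had Pearson's r of 0.92 and Spearman's rho of 0.88, given as a description since genes within a library share its depth and its cells. The median of the set was 0.56 in CD and 0.51 in HFD.

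By group, MiT/TFE factors (0.84 in CD, 0.86 in HFD) and membrane proteins (0.73, 0.82) had the highest sums, and enzymes and cofactors, with *Psap* among them, were at -0.05 and 0.19. *Cd63*, which traffics between lysosomes and the cell surface, was at 105.4 CPM in Lyz1-high cells and 626 in Lyve1+ cells of the CD library (log2 ratio 2.57, 2.42 to 2.73), and at 137.8 and 905.1 CPM in HFD (2.72, 2.56 to 2.87). *Grn* was at 586.1 and 1447 CPM in CD (1.30, 1.23 to 1.37) and at 483.2 and 1060 CPM in HFD (1.13, 1.02 to 1.24). Both genes were thus higher in the resident-type cells on either diet. *Lamp2* (1.07 in CD, 0.92 in HFD), *Tpp1* (1.11, 1.16), *Cd68* (0.84, 0.96), *Laptm4a* (0.92, 0.70), *Neu1* (0.72, 0.97) and *Mcoln1* (0.82, 1.07) passed 1.5-fold in both libraries. *Lamp1* (0.88, 0.53) and *Hexa* (0.84, 0.51) passed it in CD alone, and whether the libraries differ in this was not tested.

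The pump was less uniform. *Atp6v1a* (1.06 in CD, 1.05 in HFD), *Atp6v0a1* (0.69, 1.52) and *Atp6v1h* (0.73, 0.71) passed 1.5-fold in both libraries, and *Atp6ap1* (0.45, 0.72) in HFD. *Atp6v0e* went the other way, with 461.4 CPM in Lyz1-high and 334.8 in Lyve1+ cells in CD (-0.46, -0.57 to -0.36) and 502.3 and 352.5 in HFD (-0.51, -0.68 to -0.34). V0 and V1 subunits together summed to a ratio of 0.12 in CD (0.08 to 0.16) and 0.04 in HFD (-0.03 to 0.10). The median of the 12 tested subunits was 0.28 in CD and 0.004 in HFD, against 0.17 and 0.12 over all genes. Of the transcription factors, *Tfe3* (1.04 in CD, 1.23 in HFD) and *Mitf* (0.77, 0.60) were higher in Lyve1+ cells, the HFD interval of *Mitf* reaching just across 0 (-0.01 to 1.17), and *Tfeb* was at 0.30 and 0.45.

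*Psap* opposed most of the set. It was at 3863 CPM in Lyz1-high and 2353 CPM in Lyve1+ cells of the CD library (log2 ratio -0.72, -0.75 to -0.68), the one gene lower by 1.5-fold. In HFD it was at 3153 and 2831 CPM (-0.16, -0.22 to -0.09). HFD over CD it was therefore -0.29 in the Lyz1-high set and 0.27 in the Lyve1+ set, while the sum over all cells was almost level.

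**Figure D3:**
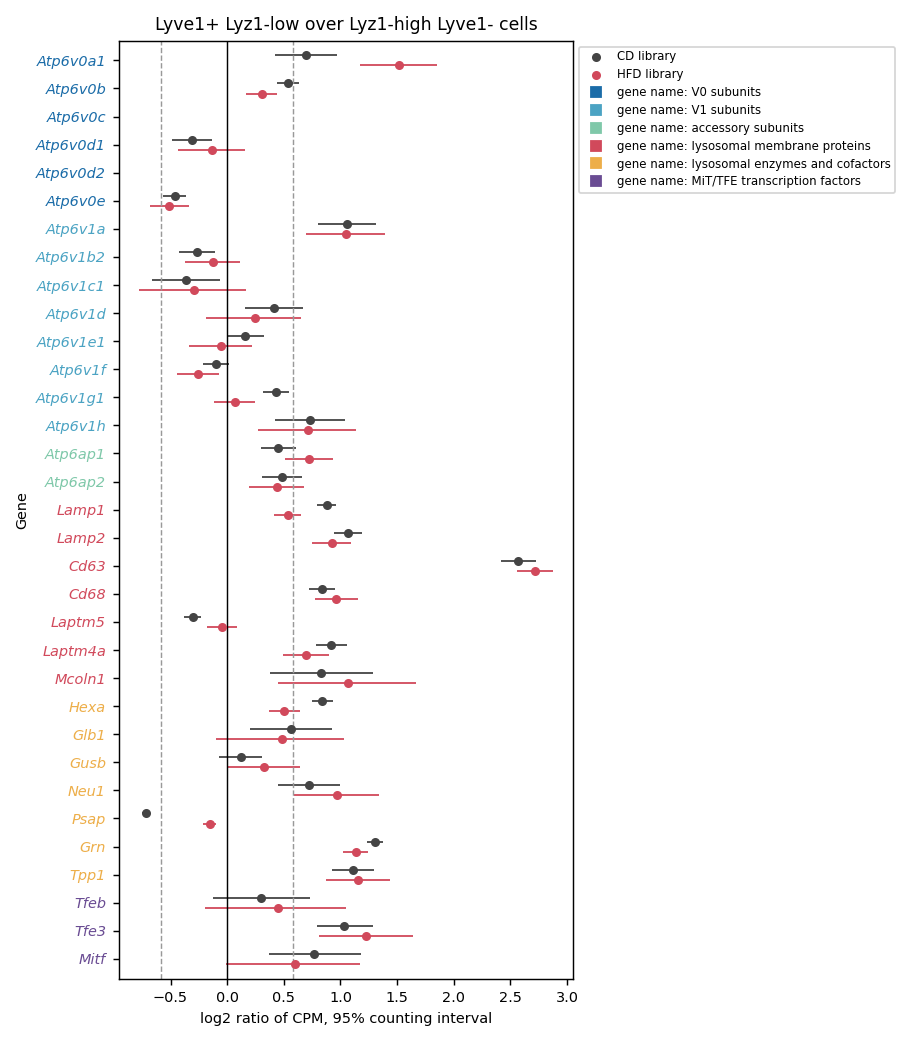
Log2 ratio of CPM in Lyve1+ cells with low *Lyz1* over Lyz1-high cells without *Lyve1* (x axis, points with 95% counting intervals) for each gene with at least 100 UMIs in a library (y axis, names coloured by role), in CD (grey) and HFD (red). Dashed lines mark 1.5-fold. *Cd63* lies farthest right, at 2.57 and 2.72, and *Psap* lies left of 0 in both libraries.

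Depth and signs of cell stress moved with this contrast. Median depth was 3800 UMIs per cell in Lyve1+ and 7924 in Lyz1-high cells of CD, and 2064 and 6438 in HFD. Genes of the response to tissue dissociation made up 2.41% and 1.41% of UMIs in CD and 2.85% and 1.56% in HFD, and median mitochondrial shares were 4.999% and 2.48% in CD and 4.95% and 2.10% in HFD. Their part in the result was not tested. With each cell thinned to 800 UMIs the sums were at 0.08 in CD and 0.24 in HFD. Both sets were then redrawn from the thinned counts, with Lyz1-high cells at 2 or more *Lyz1* UMIs. They did not hold the same cells, so the change is not that of depth alone.

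**Figure D4:**
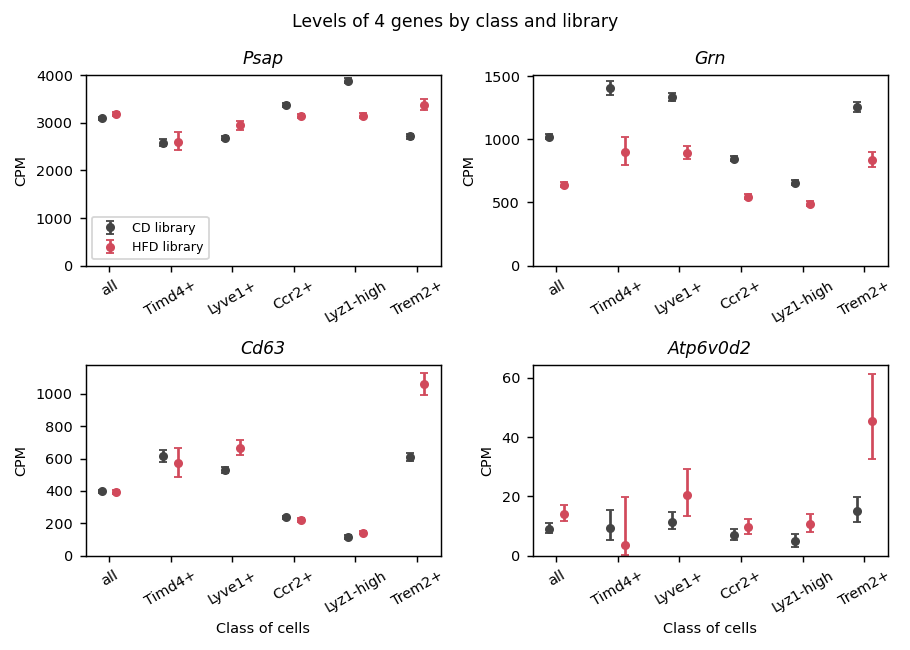
Level in CPM (y axis, starting at 0) of *Psap*, *Grn*, *Cd63* and *Atp6v0d2* in all kept cells and 5 overlapping classes (x axis) of the CD library (grey) and the HFD library (red), with 95% counting intervals. *Grn* lies lower in HFD in every class shown, and *Cd63* and *Atp6v0d2* are highest in Trem2+ cells of the HFD library, at 1060 and 45.4 CPM.

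Trem2+ cells were few in HFD, 168 cells or 8.31% of those kept, against 638 or 27.0% in CD. Of the CD cells 60.5% also had a *Lyve1* UMI and 15.8% were Lyz1-high, against 19.0% and 27.4% in HFD, so the class held different cells on each diet. Its size moves with depth, which was lower in HFD, and *Trem2* itself was at 84.3 CPM in CD and 41.3 in HFD over all kept cells. *Cd9*, which the paper used with *Trem2* to mark lipid-associated macrophages, was not raised in CD Trem2+ cells (32.3 CPM against 32.1 in all kept cells). In HFD it was at 153.4 CPM in Trem2+ cells against 39.9 in all kept cells, and at 196.1 in Timd4+ cells. Trem2+ cells were deeper than the rest, at medians of 4989 against 4172 UMIs in CD and 5190 against 2558 in HFD.

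Against Trem2- cells of the same library the 33 genes summed to a log2 ratio of 0.13 in CD (0.11 to 0.15) and 0.34 in HFD (0.31 to 0.37). In CD 3 of 32 genes were at least 1.5-fold higher and 0 lower, against 2.9% and 3.59% of all genes. In HFD 6 of 32 were higher and 0 lower, against 6.56% and 11.4%. The upward share of the set was above that of all genes in both libraries. *Atp6v0d2* and *Cd63* passed in both libraries, which is 66.7% of the CD genes and 33.3% of the HFD genes, with no such overlap given over all genes.

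*Cd63* was at 309.4 CPM in Trem2- and 607.9 in Trem2+ cells in CD (log2 ratio 0.97, 0.89 to 1.06), and at 305.7 and 1060 in HFD (1.79, 1.68 to 1.90). *Cd68* was at 305.1 and 455.8 CPM in CD (0.58, 0.49 to 0.67) and at 218.7 and 621.1 in HFD (1.51, 1.37 to 1.64). Both membrane proteins were higher in Trem2+ cells on either diet. *Atp6v0d2* was at 6.58 and 15.2 CPM in CD (1.21, 0.64 to 1.77) and at 10.1 and 45.4 in HFD (2.17, 1.59 to 2.74). Its 42 UMIs in HFD Trem2+ cells came from 20 cells, with up to 7 in 1 cell. *Glb1* (0.998, 0.54 to 1.43), *Atp6v1c1* (0.84, 0.51 to 1.17) and *Atp6v1d* (0.72, 0.38 to 1.05) passed in HFD, and *Atp6v1a* (0.59, 0.40 to 0.79) in CD. *Psap* was lower in Trem2+ cells in CD (-0.26) and near level in HFD (0.10).

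Because Trem2+ and Lyve1+ cells overlap, the comparison was repeated without any Lyve1+ cell, an alternative chosen after the data had been seen (252 Trem2+ and 940 other cells in CD, 136 and 1470 in HFD). *Cd63* was then at 1.62 in CD and 2.08 in HFD, *Atp6v0d2* at 2.23 and 2.44, and *Cd68* at 0.82 and 1.60. The sums were at 0.17 and 0.37.

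**Figure D5:**
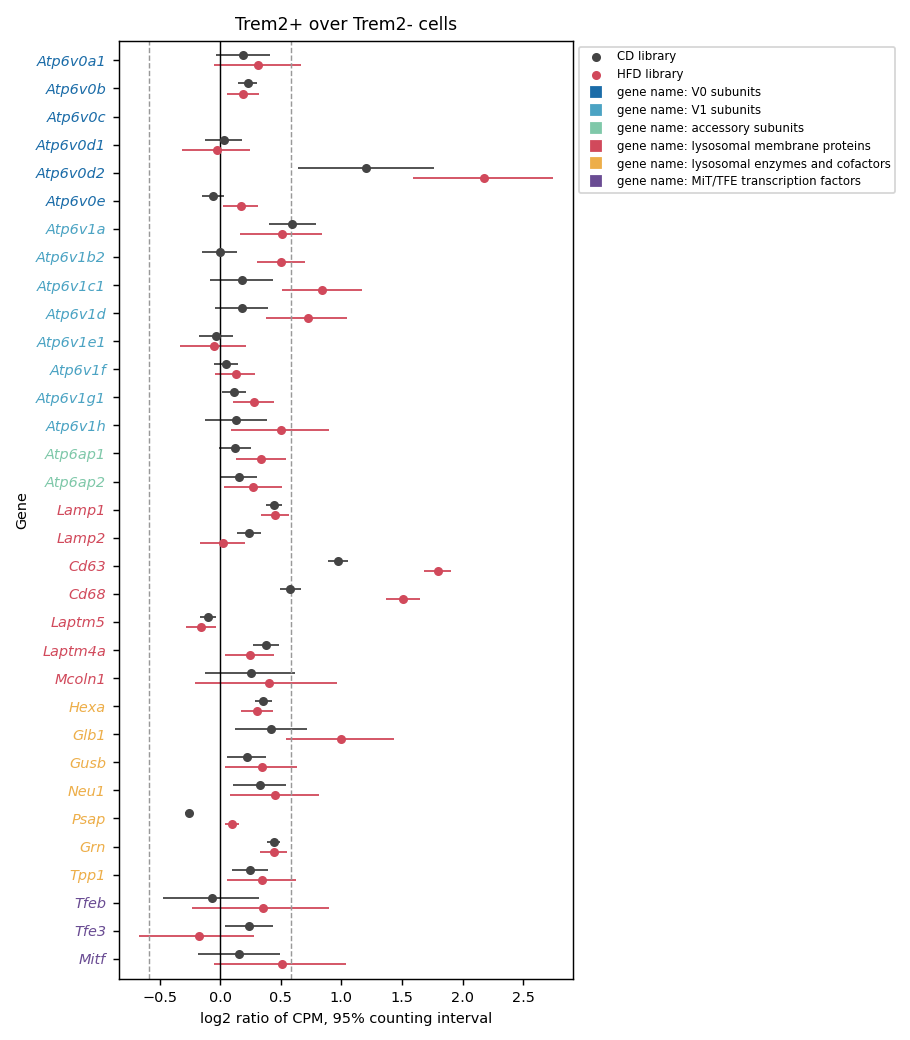
Log2 ratio of CPM in Trem2+ over Trem2- cells (x axis, points with 95% counting intervals) for each gene with at least 100 UMIs in a library (y axis, names coloured by role), in CD (grey) and HFD (red). Dashed lines mark 1.5-fold. *Atp6v0d2*, *Cd63* and *Cd68* lie farthest right in HFD, at 2.17, 1.79 and 1.51.

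Between diets within Trem2+ cells, 4 of 31 genes were at least 1.5-fold higher in HFD and 2 lower, against 7.83% and 14.6% of all genes. Higher were *Atp6v1c1* (50.8 against 103.7 CPM, log2 ratio 1.03), *Atp6v1b2* (157.4 against 277.6 CPM, 0.82), *Cd63* (0.80, 0.69 to 0.91) and *Tfeb* (0.72, 0.08 to 1.33). Lower were *Tfe3* (87.8 against 46.5 CPM, -0.92) and *Grn*. *Atp6v0d2* had a ratio of 1.58 there but only 55 and 42 UMIs, under the 100 required.

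Other genes of the pathway, 74 in all, were read from lists of further V-ATPase subunits, hydrolases, membrane proteins and sorting or nutrient-sensing proteins. In all kept cells 64 had enough UMIs, of which 5 were at least 1.5-fold higher in HFD and 4 lower, against 3.8% and 7.11% of all genes. Their median log2 ratio was -0.14, against -0.01 over all genes. This pools a mix of cells that differed, with Lyve1+ cells of low *Lyz1* giving 34.9% of UMIs in CD and 11.4% in HFD. These lists were themselves higher in such cells, as given below. The part of the mix was not tested, and no diet ratio within classes is given for them. Higher in HFD over all kept cells were *Igf2r*, the receptor that carries hydrolases to lysosomes (4.15 against 12.5 CPM, 1.59), *Acp5*, an acid phosphatase (0.86), and *Gla*, alpha-galactosidase (10.7 against 17.3 CPM, 0.70). The sorting receptor *Sort1* (0.66) and *Tcirg1*, the a3 subunit of V0 (36.2 against 57.0 CPM, 0.65), followed. Among those lower were *Arsb*, arylsulfatase B (36.2 against 10.8 CPM, -1.75), the sialic acid exporter *Slc17a5* (-0.82) and the transporter *Abca2* (-0.61).

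The same lists were read between resident-type and monocyte-type cells. In Lyve1+ over Lyz1-high cells 28 of 52 genes with enough UMIs were higher and 3 lower in CD, and 15 of 41 higher and 2 lower in HFD. Over all genes 25.3% were higher and 11.5% lower in CD, and 23.4% and 13.8% in HFD. The lists had medians of 0.62 and 0.37, against 0.17 and 0.12 over all genes. They too were chosen with earlier results of these data known. The genes highest in CD were *Flcn*, folliculin, a regulator of nutrient signalling at the lysosome (2.02), *Gaa*, which degrades glycogen (1.78), the phospholipase *Pla2g15* (1.72), *Sgsh*, a sulfatase (1.54), and the cystine exporter *Ctns* (1.54). In HFD they were *Acp2*, an acid phosphatase (2.12), *Dnase2a*, which degrades DNA (1.36), *Flcn* (1.36), *Pla2g15* (1.30) and *Hgsnat* (1.26). *Gm2a*, an activator protein that like the saposins presents glycolipids to their hydrolase, was lower in both libraries (-1.96 in CD, -1.60 in HFD). *Atp6v0a2* (-1.30) was also lower in CD, and *Lamtor4* (-0.70) in HFD.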

How the data were processed

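Droplet-based scRNA-seq (10x 3' V2) was performed on ATMs, 1 library per diet. The deposited matrices hold raw UMI counts, not normalized, from Cell Ranger 3.0.2 (genome mm10, annotation Ensembl 93). Counts were summed over kept cells and expressed as CPM, with Poisson limits for levels, conditional binomial limits for ratios and Clopper-Pearson limits for shares (exact, 95%), which cover counting error only. A gene was counted as higher or lower at 1.5-fold with at least 100 UMIs in both sets together. Levels count 3' ends and were not compared between genes. Doublets were not called, and only the upper limit of 3500 genes removed them. All members were printed; in classes, those past 1.5-fold, and of other pathway genes the 5 largest ratios each way, some of which are not reported here. Members and lists were chosen with earlier results of these data known. Gene positions are from GENCODE M21 (GRCm38, the same build as mm10), promoters from RefSeq. Alternatives changed the quality filters, depth, scaling, marker cells, the *Lyz1* limit, the fold and *Psap*; the CD mix of cells and the removal of Lyve1+ cells were added after seeing the data. Code (Python 3.11.15, numpy 2.4.6, scipy 1.17.1, pandas 2.3.3) was tested on simulated data.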

Additional observations from a re-analysis of the deposited data

Results flagged for a closer look

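Several HFD over CD ratios pointed one way in one set of cells and the other way in another, with both counting intervals clear of 0. With 1 library per diet none of these differences was tested. Between Lyve1+ cells with low *Lyz1* and Lyz1-high cells without *Lyve1*, the log2 ratio of the 33 genes differed by 0.13 (0.03 against -0.09), that of *Psap* by 0.56 (0.27 against -0.29), that of *Lamp1* by -0.34 (-0.14 against 0.20) and that of *Hexa* by -0.33 (-0.22 against 0.11). The difference of the sum rested on *Psap*. Without it the sum was at -0.04 (-0.07 to -0.001) in the Lyve1+ set and 0.03 (-0.001 to 0.05) in the Lyz1-high set. The median over all genes was 0.04 and 0.001 there. Between Trem2+ and Trem2- cells, the ratio of the 33 genes differed by 0.21 (0.13 against -0.08), that of lysosomal membrane proteins by 0.29 (0.15 against -0.14), that of enzymes and cofactors by 0.19 (0.05 against -0.15), that of *Cd68* by 0.93 (0.45 against -0.48) and that of *Psap* by 0.36 (0.31 against -0.04). In Trem2+ cells 3 of 7 membrane proteins and 3 of 7 enzymes and cofactors had ratios above 0, near the 45.9% of all genes.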

How the results depend on the processing

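Of 2047 recomputed single-gene values 1783 moved by less than their counting interval and 263 by more. The other, *Atp6v1d* in Timd4+ cells, went from past 1.5-fold lower in HFD (-0.79) to past 1.5-fold higher. It was at 0.72 at 800 UMIs per cell (-4.99 to 4.36, on 3 CD and 1 HFD UMIs). Ratios under 1.5-fold also changed sign at 800 UMIs and are not counted as such here. Examples are *Cd63* in all kept cells (from -0.02 to 0.12) and *Lamp2* in Timd4+ cells (from -0.21 to 0.76). At 800 UMIs the interval of *Cd63* was -0.02 to 0.26. That of *Lamp2* was -0.23 to 1.66, on 41 CD and 14 HFD UMIs, under the 100 required. Both reached across 0. Causes were not tested. For all 33 genes in all cells, the log2 ratio of HFD over CD (-0.07) was -0.10 with at least 1000 genes per cell, -0.0411 at 800 UMIs, -0.10 without marker cells (those with a UMI of another cell type), -0.12 without *Psap* and -0.0053 at the CD mix. Classes at 800 UMIs, here and in all other passages, were redrawn from the thinned counts, with Lyz1-high cells at 2 or more *Lyz1* UMIs. At 800 UMIs the log2 ratio of HFD over CD was -0.0153 in Timd4+, 0.0302 in Lyve1+ and 0.18 in Trem2+ cells. With median-of-ratios scaling it was -0.0305 in Timd4+, -0.0857 in Ccr2+, -0.10 in Lyz1-high and 0.17 in Trem2+ cells. Without *Psap* it was -0.10 in Lyve1+, -0.0097 in Lyz1-high and 0.0721 in Trem2+ cells. It was -0.14 in Lyz1-high cells without marker cells and 0.18 in Trem2+ cells with at most 5% mitochondrial UMIs. Lyve1+ over Lyz1-high in CD (0.21) was 0.18 at the 5% limit, 0.0796 at 800 UMIs, 0.0442 with median-of-ratios scaling and 0.61 without *Psap*; in HFD (0.34) it was 0.24 at 800 UMIs, 0.37 without marker cells, 0.22 with that scaling and 0.55 without *Psap*. Trem2+ over other cells in CD (0.13) was 0.15 at the 5% limit, 0.17 without Lyve1+ cells, 0.11 with that scaling and 0.28 without *Psap*; in HFD (0.34) it was 0.40 at the 5% limit, 0.40 with at least 1000 genes, 0.37 without Lyve1+ cells and 0.45 without *Psap*. The count of genes higher in HFD (1) was 0 without marker cells and 4 at a smaller fold limit. The count lower (2) was 1 under the study's filters, at the 5% limit and at 800 UMIs, 4 at that smaller limit and 0 at the CD mix. At 800 UMIs the gene past 1.5-fold upwards was *Atp6v1c1* (0.67), and *Atp6v0d2*, with 36 UMIs, was below the minimum for the count. Also at 800 UMIs, 9 of 19 tested genes were higher in Lyve1+ over Lyz1-high cells in CD (15 of 31 in the main setting). In HFD 6 of 17 were higher (14 of 31). Lower were 1 in CD and 2 in HFD, against 1 and 0 in the main setting. With median-of-ratios scaling 12 of 31 were higher in each library, and 2 were lower in CD and 1 in HFD. Genes higher in Trem2+ over other cells numbered 2 in CD at the 5% limit, at 800 UMIs, without marker cells and with that scaling (3 otherwise), and in HFD (6) 10 at the 5% limit, 11 with at least 1000 genes and 10 without Lyve1+ cells. At 800 UMIs 1 gene was lower in each library, and without marker cells 1 in HFD, against 0 in the main setting. Shares over all genes are given for the main setting alone. The counts at other settings, HFD over CD included, are therefore not read against a background. No paired analysis was possible because each diet had 1 library. Genes such as *Atp6v0c* and *Atp6v0d2* had too few UMIs to show differences under 1.5-fold.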
